A study of Mus musculus with 13 samples.

Results

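The 10 genes described here encode the surface ligands CD47 and CD200, their receptors SIRPα (Sirpa) and CD200R1 (Cd200r1), 3 SIRPβ receptors (Sirpb1a, Sirpb1b and Sirpb1c), and 3 further paired receptors of myeloid cells (Lilrb4a, Pirb and Pilra). They were chosen by symbol, and all 10 were found among the 55487 genes of the deposited count tables. The RNA came from mouse embryonic fibroblasts (MEFs), the connective tissue cells that grow out of a dissociated embryo, before and after spontaneous immortalization. WT primary MEFs of clones 3, 4 and 5 and the immortalized line grown from each gave 3 libraries per state. MEFs labelled Prkd3-/- gave 3 primary libraries (clones 13, 14 and 15) and 4 immortalized ones (lines 13, 13a, 14 and 15). In every group the cells were grown in DMEM with 10% fetal calf serum, and poly-A RNA was sequenced. The immortalized lines had also passed through senescence and a medium with 20% serum, so immortalization, passage and serum cannot be told apart. Each line grew from colonies that came up in 1 culture, and the labels do not give how line 13a relates to line 13. How the Prkd3 allele was disrupted and the age of the embryos are not given in the sources used here.

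CD47 is displayed by nearly all cells and binds SIRPα on macrophages, where tyrosine motifs in the SIRPα tail recruit the phosphatases encoded by Ptpn6 and Ptpn11 and restrain phagocytosis. CD200 binds CD200R1 on myeloid cells, which restrains them through Dok2 and Rasa1. Paired receptor families hold inhibitory members with such motifs, here Lilrb4a, Pirb and Pilra, beside activating members with short tails, here the SIRPβ receptors, which signal through the adaptor Tyrobp.

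The SIRPβ genes lie side by side on the minus strand of chromosome 3 and are close copies of each other, so reads from one may not have been told from reads of another. Over 1191 coding bases, Sirpb1b was 98.3% identical to Sirpb1c, Sirpb1a was 97.4% identical to Sirpb1c, and Sirpa was 71.8% identical to Sirpb1c over 1173 aligned bases. The first 150 coding bases of each copy (GENCODE M21, GRCm38) are shown because they mark how few positions separate the copies within a read of 100 bases. They run over 2 coding exons, for Sirpb1c chr3:15848341-15848413 and chr3:15838889-15838965, for Sirpb1b chr3:15574878-15574950 and chr3:15548871-15548947, and for Sirpb1a chr3:15426333-15426405 and chr3:15417117-15417193. Capitals mark bases unlike Sirpb1c, 2 in Sirpb1b and 5 in Sirpb1a.
Sirpb1c: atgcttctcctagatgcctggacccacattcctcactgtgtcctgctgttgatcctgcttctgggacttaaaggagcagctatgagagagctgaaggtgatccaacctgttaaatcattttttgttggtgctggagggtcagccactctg
Sirpb1b: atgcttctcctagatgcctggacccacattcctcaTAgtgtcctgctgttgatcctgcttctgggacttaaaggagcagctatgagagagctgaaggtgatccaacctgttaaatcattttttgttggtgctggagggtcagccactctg
Sirpb1a: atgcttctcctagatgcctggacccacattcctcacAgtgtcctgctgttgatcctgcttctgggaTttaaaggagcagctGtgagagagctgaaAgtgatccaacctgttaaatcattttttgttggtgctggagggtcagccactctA

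Of the stretches of 100 bases in each gene's transcripts, the share that also occurs in transcripts of another gene was 39.3% for Sirpb1b, 32.1% for Sirpb1c and 23.0% for Sirpb1a. The share was 35.2% for Lilrb4a, mostly with Gm49339 and Lilr4b, 20.8% for Pirb, mostly with Gm14548 and Pira2, and 12.0% for Pilra, mostly with Zcwpw1. No such stretch was found for Cd47, Cd200, Sirpa or Cd200r1, so the ligands and their receptors were free of this limit. In the WT table strand was ignored, and a pair of reads overlapping several genes was counted for each. Lilrb4a shared 35.3% of its exon bases with Gm49339 on the same strand and Pilra 15.1% with Zcwpw1 on the other strand. The share of counts involved is not known and can be larger than the share of bases. In WT primary MEFs Gm49339 had 25.9 CPM (library-scaled counts, defined below) beside 27.2 for Lilrb4a, and Zcwpw1 had 1.87 beside 1.30 for Pilra.

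Bases upstream of the start site are shown for Cd200, the ligand that rose in WT lines, and for Pirb, a receptor that fell (RefSeq, GRCm38.p6, minus strand, 5′ to 3′, bases within the gene left out). RefSeq promoters were matched for 7 of the 10 genes, and Sirpa, Cd200r1 and Lilrb4a had none in the table used. Capitals mark GGGCGG, the GC box, in Cd200 (chr16:45409054-45409303) and GAGGAAG, a core bound by the myeloid factor PU.1, in Pirb (chr7:3720392-3720632).
Cd200: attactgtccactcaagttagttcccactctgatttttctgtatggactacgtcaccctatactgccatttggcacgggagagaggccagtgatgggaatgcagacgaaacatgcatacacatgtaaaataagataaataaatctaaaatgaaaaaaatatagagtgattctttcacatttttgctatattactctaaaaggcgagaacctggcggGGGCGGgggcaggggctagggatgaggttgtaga
Pirb: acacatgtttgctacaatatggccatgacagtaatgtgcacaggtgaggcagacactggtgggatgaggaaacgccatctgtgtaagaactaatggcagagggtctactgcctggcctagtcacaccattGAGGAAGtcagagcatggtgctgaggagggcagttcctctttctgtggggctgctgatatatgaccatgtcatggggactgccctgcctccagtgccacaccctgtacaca

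On either strand of the 250 upstream bases, GGGCGG occurred in 32.7% of 32851 promoters and GAGGAAG in 10.6%. The GC box stood 34 bases before the Cd200 start, at 2 places before each Cd47 start, and 44 bases before the Pilra start. GAGGAAG stood 120 bases before the Pirb start and 211 before the Pilra start. The TATA box letters TATAAA were in none of these 7 promoters and in 12.4% of all.

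Libraries held between 35273408 and 100441756 counts, and 3 counts, the limit taken for a gene with no count, cover counting error only. Prkd3 was still counted in libraries labelled Prkd3-/-, at 33.6 to 61.0 CPM (read counts scaled to library size, normalized by the trimmed mean of M values over all 13 libraries), against 69.2 to 93.7 CPM in WT. Counts per gene do not show the loss of an exon. The 10 fibroblast markers summed to at least 14552 CPM in every library. The 14 macrophage markers summed to 1580 to 1631 CPM in WT primary MEFs and 60.6 to 153 CPM in WT lines. In the Prkd3-/- libraries, primary 14 stood apart at 2081 CPM beside 169 and 409 CPM for primaries 13 and 15, and line 13a at 328 CPM beside 15.006 to 24.6 CPM for the other lines. Mast cell, lymphocyte and neutrophil markers summed to at most 1.15, 3.57 and 0.980 CPM. In Prkd3-/- MEFs, endothelial markers summed to 15.2 to 29.0 CPM in primary libraries and 1.55 to 17.6 CPM in lines, and neural and Schwann cell markers to 87.6 to 111 CPM and 14.8 to 105 CPM. In bulk RNA, fewer cells of a type and less RNA per cell cannot be told apart.

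Per kilobase of exon, Sirpa was the most abundant of the 10 in WT primary MEFs, at 34.5 ± 2.43 CPM per kb (SD, n = 3), followed by Cd47 at 23.4 ± 1.03. Lilrb4a followed at 5.21 ± 0.468, Pirb at 3.33 ± 0.130, Cd200 at 1.82 ± 0.302 and Cd200r1 at 1.11 ± 0.140. The lowest levels per kb were those of Pilra (0.421 ± 0.0576), Sirpb1c (0.300 ± 0.0438), Sirpb1a (0.242 ± 0.0467) and Sirpb1b (0.122 ± 0.0247). In this order the ranges of neighbours overlapped only for Sirpb1c and Sirpb1a. The study counted uniquely mapped reads, so reads from stretches shared with other copies, as in the SIRPβ genes and Pirb, may have been lost. The levels per kb were not corrected for this. In WT lines the order began with Cd47 (23.6 ± 13.2), Sirpa (10.8 ± 5.16) and Cd200 (10.7 ± 2.84), whose ranges overlapped. The other 7 receptors were at or below 0.314 CPM per kb there.

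**Figure D1:**
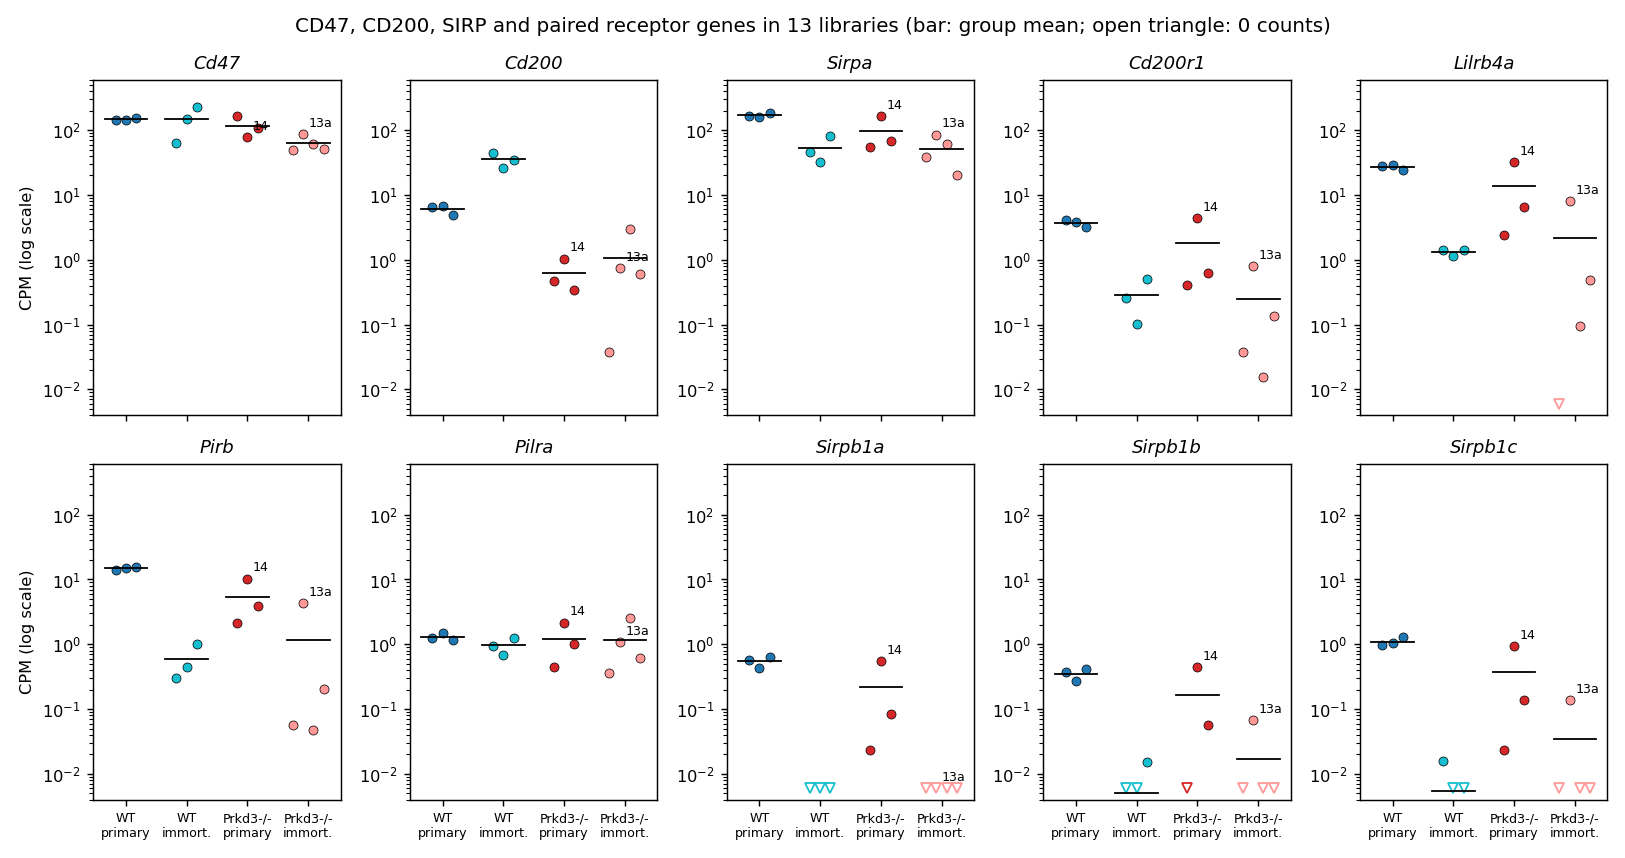
CPM (log scale) of the 10 genes in 13 libraries, 1 point a library and a bar at the group mean, with open triangles for libraries with 0 counts. Cd200 is higher in the 3 WT lines (26.2 to 45.1 CPM) than in the 3 WT primary libraries (4.88 to 6.71 CPM), as 13.9% of tested genes are. For 7 receptors every WT line lies below every WT primary library, against 17.4% of tested genes. These include the 3 SIRPβ genes and Cd200r1, which passed the filter on low counts only through the primary libraries. Among the Prkd3-/- libraries primary 14 and line 13a hold the highest Lilrb4a (32.0 and 8.07 CPM).

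Cd47 (chr16:49800533-49915010, plus strand) had 145, 141 and 154 CPM in WT primary clones 3, 4 and 5. Lines 3, 4 and 5 had 63.8, 151 and 229.5 CPM. The lines lay on both sides of the primary libraries and the groups overlapped. The Log2FC of immortalized against primary was 0.02 (SE 0.44) and the adjusted p-value 0.990 in edgeR's quasi-likelihood test. Cd47 in Prkd3-/- MEFs had 166, 77.4 and 109.9 CPM in primary 13, 14 and 15, and 49.1, 88.1, 61.5 and 51.4 CPM in lines 13, 13a, 14 and 15. Only line 13a reached the lowest primary library, primary 14. The Log2FC was -0.92 (SE 0.32, edgeR, unadjusted p = 0.0215, adjusted p = 0.674). Without primary 14 and line 13a, left out after the data were seen, it was -1.37 (SE 0.28, edgeR, adjusted p = 0.299). Every remaining line was then below every remaining primary library, which leaving out line 13a had fixed.

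Cd200 (chr16:45382135-45409053, minus strand), the ligand of CD200R1, had 6.52, 6.71 and 4.88 CPM in WT primary clones 3, 4 and 5. The level of Cd200 in lines 3, 4 and 5 was 45.1, 26.2 and 35.1 CPM. Every line was above every primary library. Cd200 rose 5.87-fold, with a Log2FC of 2.55 (SE 0.25) and an adjusted p-value of 0.00504 in edgeR's test, against a threshold of 0.01 with a change of at least 2-fold. Of 19836 tested genes, 0.0605% were called higher. With the clone as a replicate block the edgeR adjusted p was 0.0443 and Cd200 was no longer called. It was also lost without WT primary 3, 4 or 5 (edgeR, adjusted p = 0.0422, 0.0395 and 0.0344), and held without any 1 line. Cd200 was low in Prkd3-/- MEFs, with 0.472, 1.04 and 0.337 CPM in primary 13, 14 and 15, and 0.0382, 0.754, 2.94 and 0.594 CPM in lines 13, 13a, 14 and 15. Line 14 was highest and line 13, with 2 counts, lowest, so the groups overlapped. The Log2FC was 0.79 (SE 1.12, edgeR, adjusted p = 0.905). Without primary 14 and line 13a it was 1.55 (SE 1.55). Both Prkd3-/- groups were below both WT groups in Cd200, and since each genotype was counted in a table of its own, genotype and table cannot be told apart.

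Sirpa (chr2:129592835-129632228, plus strand), the inhibitory receptor of CD47, had 163, 162 and 183 CPM in WT primary clones 3, 4 and 5. Lines 3, 4 and 5 had 45.5, 32.5 and 81.4 CPM. Every line was below every primary library. The Log2FC was -1.67 (SE 0.35), with an adjusted p-value of 0.0554 in edgeR, so Sirpa was not called, while DESeq2 gave an adjusted p of 0.000127. Without line 5, the highest of the lines, edgeR's Log2FC was -2.12 (adjusted p = 0.00402). Sirpa in Prkd3-/- MEFs had 55.5, 165 and 68.1 CPM in primary 13, 14 and 15, and 38.8, 85.4, 62.2 and 20.4 CPM in lines 13, 13a, 14 and 15. Primary 14 was at the level of the WT primary libraries and the groups overlapped. The Log2FC was -0.91 (SE 0.56, edgeR, adjusted p = 0.832), -0.26 without primary 14 alone, and -0.62 (SE 0.49) without primary 14 and line 13a.

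Cd200r1 (chr16:44765736-44794978, plus strand), the receptor of CD200, had 4.12, 3.79 and 3.20 CPM in WT primary clones 3, 4 and 5. The level of Cd200r1 in lines 3, 4 and 5 was 0.258, 0.102 and 0.503 CPM, from 16, 6 and 33 counts. Cd200r1 passed the filter on low counts only through the WT primary libraries, so its WT tests are given as values and not as support. Every line was below every primary library. The Log2FC was -3.67 (SE 0.56) and the adjusted p-value 0.0217 in edgeR, above the threshold, and 1.46e-11 in DESeq2. Without line 5 edgeR called it (Log2FC -4.34, adjusted p = 0.00663). Among the Prkd3-/- libraries, primary 14 had 4.40 CPM beside 0.415 and 0.617 CPM for primary 13 and 15. Lines 13, 13a, 14 and 15 had 0.0382, 0.795, 0.0156 and 0.135 CPM. Line 13a was above primary 13 and 15, so the groups overlapped. The Log2FC was -2.87 (SE 1.36, edgeR, adjusted p = 0.788), and it was -1.04 without primary 14 alone and -4.81 without line 13a alone. It was -2.98 (SE 0.92, edgeR, adjusted p = 0.611) without primary 14 and line 13a. The Prkd3-/- lines alone would not have passed the filter either, so the Prkd3-/- tests of Cd200r1 are also given as values and not as support.

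Lilrb4a (chr10:51490956-51496611, plus strand), an inhibitory receptor of macrophages and mast cells, had 27.6, 29.5 and 24.6 CPM in WT primary clones 3, 4 and 5. The level of Lilrb4a in lines 3, 4 and 5 was 1.43, 1.15 and 1.42 CPM. The WT groups did not overlap, and within each group the libraries differed by at most 1.25-fold. Lilrb4a fell 20.4-fold, with a Log2FC of -4.35 (SE 0.15) and an adjusted p-value of 0.000259 in edgeR. Of the tested genes, 1.76% were called lower. Lilrb4a was called without any 1 of the 6 WT libraries, and lost with the clone as a replicate block (edgeR, adjusted p = 0.0185). Gm49339, whose exons lie almost wholly in those of Lilrb4a, had nearly the same counts and fell with it (Log2FC -4.26, SE 0.16, edgeR, adjusted p = 0.000300), so these 2 calls rest on shared reads. Lilrb4a in Prkd3-/- MEFs had 2.41, 32.0 and 6.48 CPM in primary 13, 14 and 15, and 0, 8.07, 0.0938 and 0.486 CPM in lines 13, 13a, 14 and 15. Primary 14 matched the WT primary libraries, and line 13a exceeded primary 13 and 15. The Log2FC was -2.66 (SE 1.82, edgeR, adjusted p = 0.843), and it was -1.04 without primary 14 alone and -6.11 without line 13a alone. Without primary 14 and line 13a it was -4.51 (SE 1.498, edgeR, adjusted p = 0.689). Every remaining line was below both remaining primary libraries, but line 13a was the only line that overlapped them, so leaving it out fixed this. With all Prkd3-/- libraries and in the reduced set, the lines alone would not have passed the filter on low counts for Lilrb4a. Its Prkd3-/- tests are therefore given as values and not as support.

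Pirb (chr7:3711409-3720391, minus strand), an inhibitory receptor for MHC class I, had 14.2, 14.9998 and 15.4 CPM in WT primary clones 3, 4 and 5. Lines 3, 4 and 5 had 0.306, 0.440 and 1.02 CPM. The WT groups did not overlap and Pirb fell 25.1-fold (Log2FC -4.65, SE 0.49, edgeR, adjusted p = 0.00671). The adjusted p was 0.0426 with the clone as a replicate block. It was 0.0432, 0.0440 and 0.0418 without WT primary 3, 4 and 5, and 0.0205 without line 4, so the call was lost in each of these edgeR fits. Pirb in Prkd3-/- MEFs had 2.17, 10.3 and 3.90 CPM in primary 13, 14 and 15, and 0.0573, 4.36, 0.0469 and 0.202 CPM in lines 13, 13a, 14 and 15. Line 13a again lay above 2 primary libraries and the other lines below all 3. The Log2FC was -2.23 (SE 1.53, edgeR, adjusted p = 0.843), and it was -1.37 without primary 14 alone and -5.72 without line 13a alone. It was -4.87 (SE 0.83, edgeR, unadjusted p = 0.00154, adjusted p = 0.263) without primary 14 and line 13a. With all Prkd3-/- libraries and in this reduced set, the lines alone would not have passed the filter on low counts for Pirb. These Prkd3-/- tests are therefore given as values and not as support.

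Pilra (chr5:137821952-137836281, minus strand), an inhibitory receptor for glycosylated ligands, had 1.24, 1.502 and 1.16 CPM in WT primary clones 3, 4 and 5. The level of Pilra in lines 3, 4 and 5 was 0.951, 0.694 and 1.27 CPM. The groups overlapped, and the Log2FC was -0.42 (SE 0.29, edgeR, adjusted p = 0.482). Prkd3-/- MEFs had 0.449, 2.16 and 1.01 CPM in primary 13, 14 and 15, and 0.363, 1.08, 2.55 and 0.607 CPM in lines 13, 13a, 14 and 15. The highest library was line 14, not line 13a, and the groups overlapped (Log2FC -0.08, SE 0.79, edgeR, adjusted p = 0.993). Without primary 14 and line 13a the Log2FC was 0.69 (SE 1.02). Zcwpw1, which overlaps Pilra on the other strand, had 1.87 ± 0.162 CPM in WT primary MEFs (SD, n = 3) and 1.91 ± 0.381 CPM in WT lines, a level near that of Pilra.

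The activating receptor Sirpb1c (chr3:15795145-15848528) had 0.981, 1.04 and 1.29 CPM in WT primary clones 3, 4 and 5. WT lines held 1 count in all, in line 3. Counts were 203-fold higher in primary libraries (exact 95% counting interval 36.1 to 8066), and edgeR gave an adjusted p of 0.00429, past the threshold. It was no longer called with the clone as a replicate block (edgeR, adjusted p = 0.0618), nor without WT primary 3, 4 or 5 (adjusted p = 0.0331, 0.0357 and 0.0336) or line 4 (adjusted p = 0.0103). limma gave an adjusted p of 0.0129. Sirpb1a (chr3:15371653-15426520) had 0.583, 0.435 and 0.643 CPM in WT primary clones and 0 counts in all 3 WT lines. It was at least 10.9-fold lower in the lines, taking 3 counts per library, with an edgeR adjusted p of 0.0128. Sirpb1b (chr3:15495751-15575065) had 0.368, 0.272 and 0.411 CPM in WT primary clones and 1 count in all in the lines, in line 5, a ratio of 63.1 (exact 95% counting interval 10.97 to 2527) with an edgeR adjusted p of 0.0125. All 3 SIRPβ genes passed the filter on low counts only through the WT primary libraries, so a tested SIRPβ gene had to be lower in the lines, and their tests are given as values and not as support.

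Most SIRPβ counts of the Prkd3-/- libraries came from primary 14. Sirpb1c had 0.0230, 0.943 and 0.140 CPM in primary 13, 14 and 15, and among the lines 0.137 CPM in line 13a and 0 in the others. Its Log2FC was -3.34 (SE 1.602, edgeR, adjusted p = 0.790), and without primary 14 and line 13a it did not pass the filter. The lines alone would not have passed it for Sirpb1c, so this test is not support. Sirpb1a had 0.0230, 0.545 and 0.0842 CPM in the primary libraries and 0 in all 4 lines, at least 3.80-fold lower, a bound that rests on the 59 counts of primary 14. Without that library the mean was 0.0536 CPM, under the 0.0573 CPM that 3 counts are worth in the shallowest line, and no bound remains. Sirpb1b had 0, 0.444 and 0.0561 CPM in the primary libraries and counts in line 13a alone (0.0685 CPM). Neither passed edgeR's filter in this genotype.

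Set side by side in WT, edgeR called Lilrb4a, Pirb and Sirpb1c lower and Cd200 higher. The counts that follow, up to the replicate block, leave out the 3 SIRPβ genes, whose direction was fixed by the filter. Cd200r1 stays among the 5 inhibitory receptors, but its WT lines alone would not have passed the filter. Its part in these counts is therefore not support. It enters each count of the 5 except the 2 called by edgeR, and it holds their median Log2FC. Of the 5 inhibitory receptors edgeR called 2 lower, against 1.76% of tested genes, and DESeq2 called 4 lower, against 5.39%. At an adjusted p under 0.05 edgeR called 3 of the 5 lower, where 4.16% of genes were. Of the ligands, both tools called Cd200 higher, against 0.0605% of genes in edgeR and 0.545% in DESeq2. An unadjusted p under 0.05 in edgeR was given to 4 of the 5 inhibitory receptors and to Cd200, against 19.7% of genes. Every line was below every primary library for 4 of the 5 inhibitory receptors, against 17.4% of tested genes, and above for Cd200, against 13.9%. The median Log2FC of the 5 was -3.67 and that of all tested genes 0.04. Over all 10 genes, with the clone as a replicate block, edgeR called 0, and 0.0% of all genes. In that fit 8 of the 10 had an unadjusted p under 0.05, the 3 SIRPβ genes and Cd200r1 among them. The share of all genes with such a p is not given here, so this count is not support. When the spread was estimated over all 13 libraries in a joint fit edgeR called 0 of the 10 as well, with adjusted p of 0.324 for Cd200, 0.382 for Lilrb4a, 0.253 for Pirb and 0.129 for Sirpb1c. The summed macrophage, endothelial, and neural and Schwann cell markers were also lower in the WT lines. Single markers did not all fall, and Tubb3 of the neural list was higher in every WT line (Log2FC 1.08, SE 0.26, not called by edgeR). Of the 14 macrophage markers, 14 had a negative Log2FC and edgeR called 8 lower. The 7 endothelial markers summed to 11.6 to 16.4 CPM in primary MEFs and 0.371 to 1.998 CPM in lines, where edgeR called 1 of 4 tested lower (Tek). The 7 neural and Schwann cell markers summed to 106 to 108 CPM in primary MEFs and 61.3 to 77.3 CPM in lines, with 0 of 6 tested called by edgeR and 1 called in each direction by DESeq2. The part of these markers in the receptors' result was not tested.

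In Prkd3-/- MEFs, edgeR called 0 of the 8 genes that passed its filter, 0.0% of all genes in either direction, and DESeq2 called 0 of 10, where 0.67% of its genes were called lower and 0.111% higher. Cd47 alone had an unadjusted p under 0.05 in edgeR, where 6.56% of genes did. In DESeq2 Cd47, Cd200r1 and Sirpb1a did, and the share of all genes there is not given here. Sirpb1a rests mostly on the 59 counts of primary 14. Every line was below every primary library for none of the 8, against 5.26% of tested genes, and above for none, against 4.19%. Sirpb1a, which did not pass the filter, had 0 counts in the lines and 2 in primary 13, too few to separate the groups. With primary 14 and line 13a left out, edgeR still called 0.

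**Figure D2:**
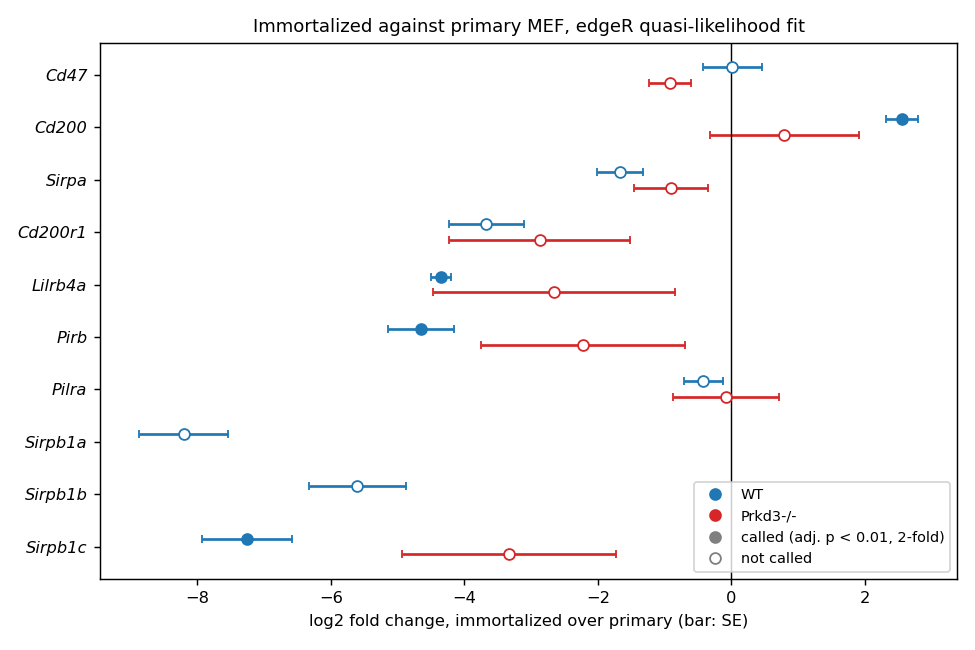
Log2 fold change of immortalized against primary MEFs for each gene, WT in blue and Prkd3-/- in red, with bars of 1 SE. Filled points passed the threshold in edgeR, which were Cd200 (2.55), Lilrb4a (-4.35), Pirb (-4.65) and Sirpb1c (-7.26) in WT, and none in Prkd3-/-, where bars are wider. Fitted values of Sirpb1a, Sirpb1b and Sirpb1c rest on 0 or 1 count in the WT lines and depend on the prior count.

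Whether the response to immortalization depended on genotype was tested with an interaction term, fitted to all 13 libraries together. No gene of the 10 was called by edgeR or DESeq2 at an adjusted p under 0.05, where edgeR called 0.0% of all genes and DESeq2 0.123%. None had an unadjusted p under 0.05 in edgeR, where 3.97% of genes did, nor in DESeq2. Without primary 14 and line 13a, Cd47 had an unadjusted p of 0.0370 in edgeR (log2 difference -1.37, SE 0.56), and 0 were called. For Cd200 the response in Prkd3-/- minus that in WT was -1.77 (SE 1.23) on the log2 scale, and for Cd47 -0.93 (SE 0.56). The Cd200 difference was -2.71 in limma (SE 1.13, unadjusted p = 0.0342, not called), -2.98 without Prkd3-/- line 14, -1.16 without Prkd3-/- primary 14 and -1.02 without primary 14 and line 13a. For the receptors it ranged from 0.35 (SE 0.94, Pilra) to 3.94 (SE 2.37, Sirpb1c). A rise of Cd200 in WT and the absence of a call in Prkd3-/- therefore do not show that the responses differ.

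The ligands were then set beside their receptors, as CPM per kb of exon within a library. In WT primary MEFs the ratio of Cd47 to Sirpa was 0.697, 0.681 and 0.657 in clones 3, 4 and 5. In WT lines 3, 4 and 5 it was 1.10, 3.64 and 2.21. The lines held more Cd47 than Sirpa and the primary MEFs less, without overlap, while the level of Cd47 itself overlapped and that of Sirpa did not. The ratio of Cd200 to Cd200r1 was 1.59, 1.78 and 1.54 in primary clones 3, 4 and 5, and 176, 260.4 and 70.3 in lines 3, 4 and 5. The lower level of the receptor and the higher level of the ligand both enter this ratio, and line 5, with the most Cd200r1, was the lowest.

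In Prkd3-/- MEFs the ratios of lines and primary libraries overlapped. Cd47 over Sirpa was 2.34, 0.366 and 1.26 in primary 13, 14 and 15, and 0.990, 0.808, 0.774 and 1.97 in lines 13, 13a, 14 and 15. Primary 14, with the most Sirpa of the Prkd3-/- libraries, had the lowest ratio of the 13 libraries. Cd200 over Cd200r1 was 1.15, 0.239 and 0.550 in the primary libraries, 0.956 in line 13a and 4.44 in line 15. Line 14 held 188 counts of Cd200 and 1 of Cd200r1, so ligand exceeded receptor there too, with too few receptor counts for a ratio, and line 13 held 2 counts of each. The WT and Prkd3-/- ratios are levels within a library and were not tested against each other.

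**Figure D3:**
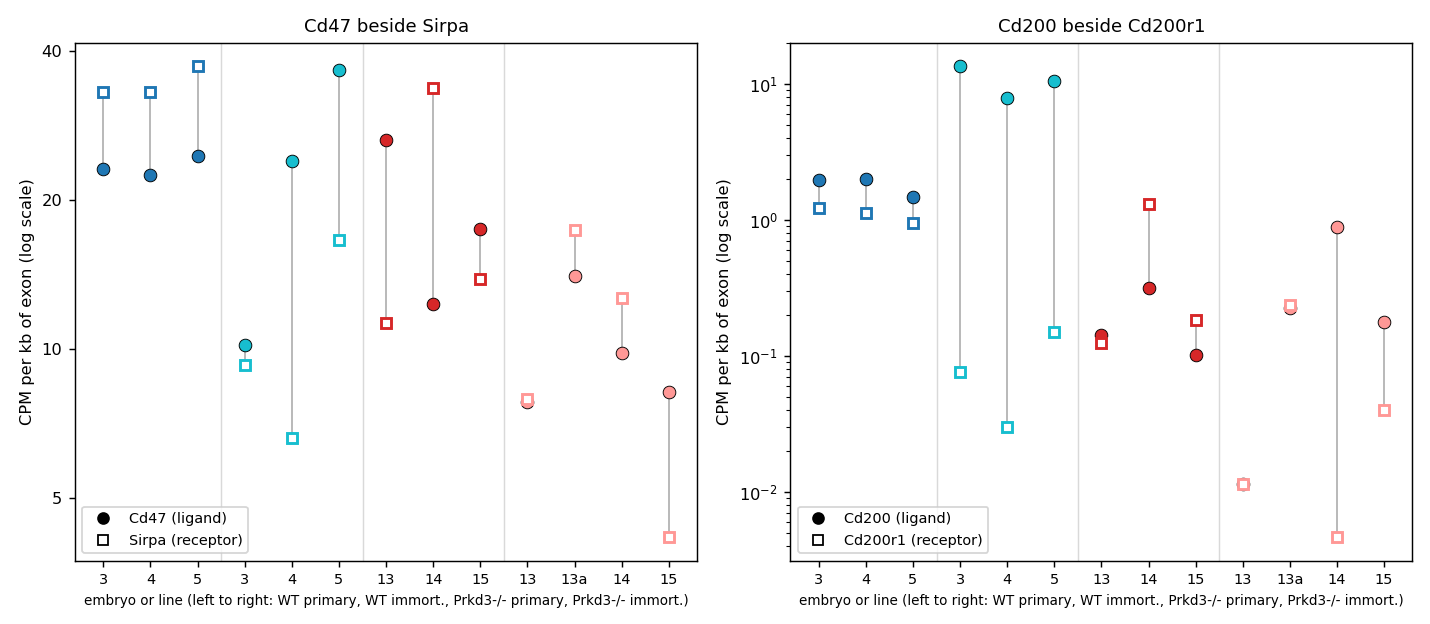
Level of each ligand (filled circles) and its receptor (open squares) in CPM per kb of exon (log scale) for 13 libraries, in the order WT primary, WT immortalized, Prkd3-/- primary, Prkd3-/- immortalized. Cd47 lies below Sirpa in the 3 WT primary libraries and above it in the 3 WT lines, and Cd200 lies 70.3 to 260.4 times above Cd200r1 in the WT lines.

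The receptors were next read beside the macrophage markers of the same library. For each 100 CPM of the 14 markers, Lilrb4a had 1.56 to 1.83 CPM in WT primary MEFs, 0.927 to 1.90 in WT lines and 1.43 to 1.58 in Prkd3-/- primary MEFs. Over the 12 libraries with more than 3 counts of Lilrb4a, this value spanned 3.94-fold, while the level of Lilrb4a itself ran from 0.0938 to 32.0 CPM. Line 13 had 0 counts of Lilrb4a and 8 of the 14 markers at 0, among them Adgre1, Itgam and Ptprc. Pirb spanned 4.40-fold over 11 libraries and Cd200r1 3.64-fold over 11. In primary 14 and line 13a, which stood apart in these receptors, the marker signal stood apart too.

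Within WT, Pirb per 100 marker CPM was still lower in the lines (0.302 to 0.726) than in primary MEFs (0.874 to 0.974), without overlap, while the ranges of Lilrb4a overlapped, as did those of Cd200r1. The make-up of the marker sum differed between the WT lines, where Adgre1 ran from 2.15 to 55.0 CPM in sums of 60.6 to 153 CPM. Its part in the value of Pirb was not tested. Sirpb1c per 100 went from 0.0602 to 0.0814 in WT primary MEFs to at most 0.0159 in lines, at 0 or 1 count. Sirpa, Pilra and the ligands spanned more. Sirpa spanned 52.1-fold per marker signal, with 9.97 to 11.6 CPM per 100 in WT primary MEFs and 44.9 to 53.5 in WT lines. In Prkd3-/- line 14 the markers summed to 15.006 CPM while Sirpa was at 62.2 CPM, or 414 per 100. Pilra spanned 231-fold, Cd47 110.3-fold and Cd200 886-fold. In Cd200 the WT lines (22.9 to 44.5 per 100) lay above the WT primary MEFs (0.309 to 0.416). These ratios are descriptions over libraries that share their depth between both measures, and no test was made.

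**Figure D4:**
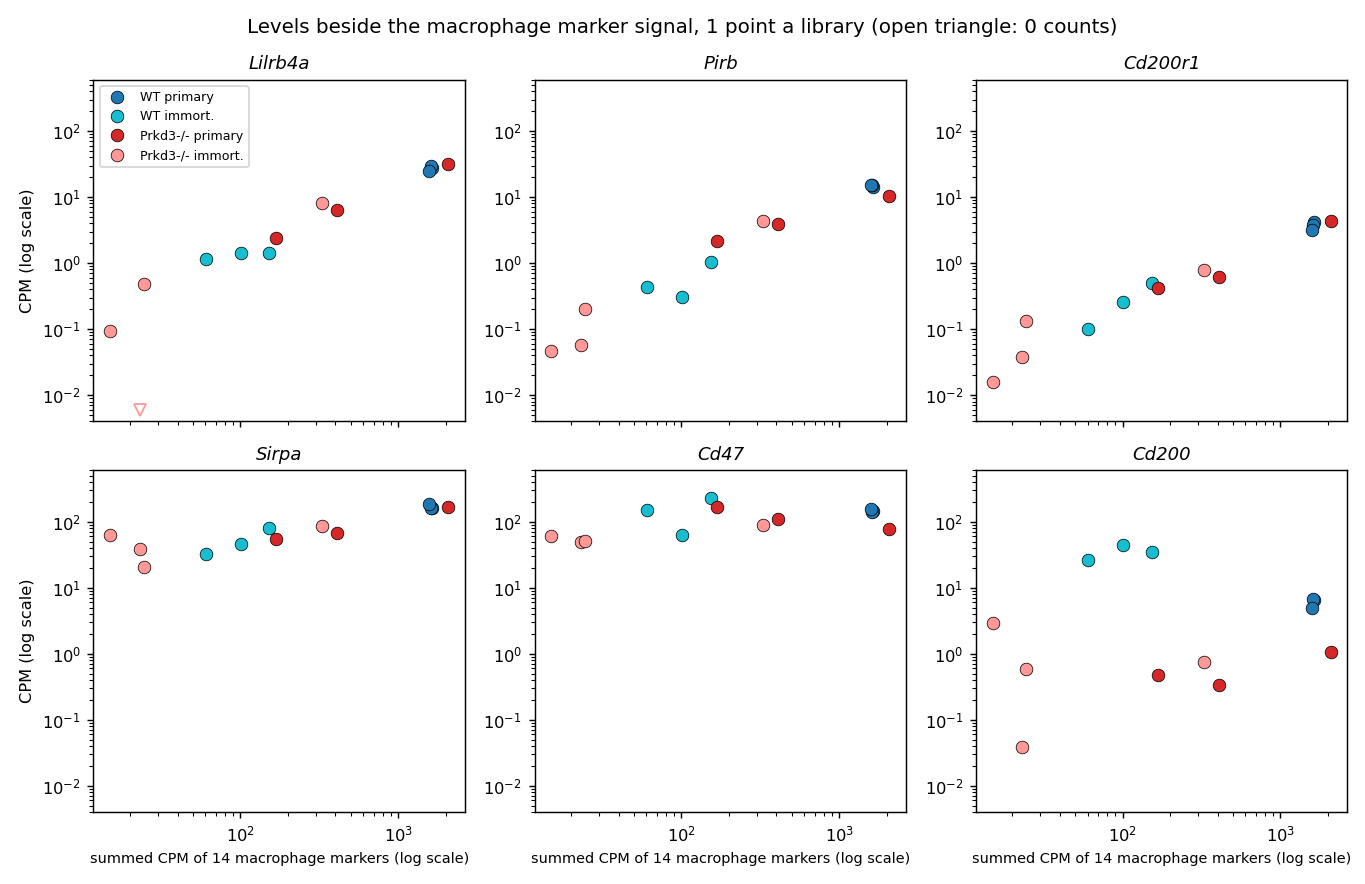
CPM of 6 genes (log scale) against the summed CPM of 14 macrophage markers (log scale), 1 point a library, coloured by group, with open triangles for 0 counts. Lilrb4a, Pirb and Cd200r1 are at most 0.486 CPM in the 3 libraries with a marker signal of 15.006 to 24.6 CPM and at least 3.20 CPM in the 4 with 1580 to 2081 CPM (at 15.006 CPM Pirb has 3 counts and Cd200r1 1), Pirb lies lower per signal in the WT lines than in the WT primary libraries, Sirpa stays above 20 CPM where the signal is lowest, and Cd47 and Cd200 do not follow it.

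Among other genes of these pathways, edgeR called 3 of 4 tested paired receptors lower in WT, against 1.76% of all tested genes, and DESeq2 the same number, against 5.39%. The most abundant, Lilr4b (gp49A), a close relative of Lilrb4a that lacks its inhibitory motifs, went from 12.1 ± 1.68 CPM in WT primary MEFs to 0.508 ± 0.257 CPM in lines (SD, n = 3, Log2FC -4.58, SE 0.43, edgeR, adjusted p = 0.00460). The other called genes, named after their values were seen, were Pira2 and Lilra6, activating receptor genes that share sequence with Pirb. Of the 4, only Lilr4b passed the filter in both genotypes. Levels of Pira2 and Lilra6 in the lines are not given here, and a gene that passed only through the primary libraries had to be lower. Their calls are therefore not support. Of 15 symbols fixed for this list, 9 were found and 5 of these did not pass the filter.

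Of 12 signalling partners, edgeR called 5 lower in WT, against 1.76% of all genes, and none higher, against 0.0605%. Named after their values were seen, they were Ptpn6 (Log2FC -4.30, SE 0.20), the phosphatase of tyrosine motifs in blood cells, Inpp5d (-4.35, SE 0.43), an inositol phosphatase, Tyrobp (-4.65, SE 0.43), the adaptor of the activating receptors, Dok2 (-5.33, SE 0.40), the adaptor of CD200R1, and Fyb (-1.32, SE 0.15), an adaptor bound by Skap2. Whether any of these 5 passed the filter on low counts only through the primary libraries was not tested. The 3 most abundant partners were not called. Ptpn11, the broadly expressed phosphatase, had 244 ± 3.01 CPM in WT primary MEFs and 284 ± 13.5 CPM in lines (SD, n = 3, edgeR, adjusted p = 0.265). Rasa1 had 111 ± 0.495 and 106 ± 9.96 CPM, and Dok1 had 38.3 ± 1.71 and 38.9 ± 7.01 CPM.

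Of 12 tested other ligands of these receptors, edgeR called 0 in WT and DESeq2 0. Fn1 (fibronectin) had a Log2FC of 0.60 (SE 0.53), Thbs1 (thrombospondin, a ligand of CD47) 0.51 (SE 0.27) and Rtn4 (Nogo, a ligand of Pirb) 0.34 (SE 0.26). Of 8 tested ligands of other inhibitory receptors, edgeR called 0 and DESeq2 1 lower, with Log2FC of 0.98 (SE 0.54) for Cd24a, 0.06 (SE 0.21) for Cd276 and 0.23 (SE 0.35) for Nectin2. Of 13 tested other myeloid inhibitory receptors, edgeR called 3 lower, against 1.76% of all genes, and DESeq2 9, against 5.39%. All 13 had a negative Log2FC, as did 45.8% of all tested genes. Levels in the lines are not given here for most of them. Any that passed the filter on low counts only through the primary libraries had to be lower, so these counts are not support. The most abundant was Cd72, with 81.6 ± 2.11 CPM in WT primary MEFs and 42.5 ± 6.13 CPM in lines (SD, n = 3, Log2FC -0.94, edgeR, adjusted p = 0.0118). Clec12a had a Log2FC of -4.20 (SE 0.88) and Vsir of -1.16 (SE 0.41), neither called. In Prkd3-/- MEFs edgeR called 0 genes of these 5 lists, and 0.0% of all genes. DESeq2 called 1 lower among the signalling partners and 1 among the other myeloid inhibitory receptors, where 0.67% of its genes were called lower.

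Patterns over the 13 libraries were also compared, as the root mean square distance between centred log2 CPM of a pair of genes (prior count 1). Nearest to Lilrb4a were Cd84 (0.49), C1qb (0.51) and Lcp1 (0.53), genes of blood cells, where the median gene was at 3.21. Nearest to Sirpa were Bmp6 (0.38), Nmi (0.41) and Gm20496 (0.41), with the median gene at 1.10. Nearest to Cd200 were Sh2d4a (0.93), Phyhip (1.20) and Gm2427 (1.24), with the median gene at 2.83. Levels were low, at 0.0191 to 3.94 CPM for Sh2d4a, 0.0382 to 8.40 for Phyhip and 0 to 0.999 for Gm2427. Few counts and the prior count therefore enter these distances. The points share libraries and depth, and the distances carry no test.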

How the data were processed

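Poly-A RNA of 13 MEF libraries was sequenced in pairs of 100 bases. The authors mapped the WT reads to mm10 with STAR 2.7.10a and deposited raw counts. Uniquely mapped read pairs were counted per gene with featureCounts (Subread 2.0.6, SAMtools 1.18, Ensembl GRCm38) without strand, giving a pair to each gene it overlapped. The counting options of the Prkd3-/- table are not given in the sources used here, but it lists the same genes and lengths. FastQC 0.12.0 is also named in the submitters' processing notes. Gene symbols were found for 55141 of 55487 genes.

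Counts were fitted per genotype with edgeR 4.0.16 (TMM, its filter on low counts, quasi-likelihood F test, robust) in R 4.3.3, with Benjamini-Hochberg adjustment. Genes were called at an adjusted p under 0.01 and a |Log2FC| of at least 1, and the interaction of state and genotype at 0.05. Values in the text are CPM after TMM over all libraries. The SE is the Log2FC divided by the square root of F. Alternatives were DESeq2 1.42.0 and limma 3.58.1, 2 other scalings, no filter on low counts or a minimum of 10 in each library, a fit without the robust option, a joint fit over both genotypes, the clone as a replicate block, lines 13 and 13a summed, an adjusted p under 0.05, and each library left out. Leaving out primary 14 and line 13a together was added after the data were seen.

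The clone numbers in the labels, 1 embryo each in the study's description of the WT cells, pair primary and immortalized libraries. Deviations from group means correlated between -0.04 and 0.02 in WT pairs and between -0.28 and 0.14 in Prkd3-/- pairs. The scripts were tested on simulated data. The 10 genes and the other lists were chosen with earlier results of these data known. All 10 were named, with the 3 most abundant tested genes of each other list, genes that overlap a member, and the 3 nearest patterns of Cd200, Sirpa and Lilrb4a.

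P-values measure only the spread between these libraries.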

Additional observations from a re-analysis of the deposited data

Results flagged for a closer look

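In the group of 4 Prkd3-/- lines, line 13a was set apart in 5 receptors by the gap between it and the next line, divided by the range of the group. The value was 0.847 for Cd200r1, 0.940 for Lilrb4a and 0.964 for Pirb, against a critical value of 0.829 for 4 samples. It was 1.0 for Sirpb1b and 1.0 for Sirpb1c, where the other lines had 0 counts and line 13a 5 and 10, so that any count in a single line gives this value. Chance flags about 1 in 20 groups if values are normally distributed, and skewed CPM near 0 need not keep to that rate. The 9 sets of values examined came from the same 4 lines, so the flags are not independent. The other groups have 3 libraries and were not examined in this way. In the same line the macrophage markers summed to 328 CPM, against 15.006 to 24.6 CPM in the other lines, and their part in these values was not tested.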

How the results depend on the processing

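Of the 10 genes in WT, 3 were called lower, against 1.76% of tested genes, and 1 higher, against 0.0605%. The number called lower was 7 in DESeq2 (5.39% of its genes), 6 at an adjusted p under 0.05 (4.16%) and 0 with the replicate block (0.0%). It was 6 with no filter, 0 in the joint fit, and 1 to 5 with a library left out (1 without any WT primary library or line 4, and 5 without line 5). The shares of all genes in these last fits are not given here. All these numbers count the SIRPβ genes and Cd200r1, which are not support. The number called higher was 0 with the replicate block, 0 in the joint fit, and 0 to 1 with a library left out. Calls in Prkd3-/- and for the difference between genotypes stayed at 0 under every alternative run, including the replicate block, with or without primary 14 and line 13a.

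Of the Log2FC values under alternatives, 474 kept direction and call, 12 passed the threshold only there, 20 lost it and 24 turned direction, in each case for a gene that was not called. For Cd47 in WT, the Log2FC was -0.10 with library size alone, -0.0095 with at least 10 counts in every library, -0.17 in limma and -0.16 with the replicate block, and -0.45 to 0.38 with a library left out. For Pilra in Prkd3-/- it was 0.11 with the replicate block, 0.10 with lines 13 and 13a summed, 0.69 without primary 14 and line 13a, and -0.83 to 0.66 with 1 library left out. For Cd200 in Prkd3-/- it was -0.21 in limma and -0.43 to 1.41 with a library left out. The difference between genotypes in Lilrb4a was -0.53 in limma, -0.11 without primary 14 and line 13a, and -1.73 to 3.32 with a library left out. In Pirb it was -0.18 without primary 14 and line 13a and -1.03 to 3.28 with a library left out. With a library left out it ran from -0.99 to 5.497 in Sirpb1b, from -0.44 to 6.30 in Sirpb1c, from -0.39 to 1.09 in Pilra and from -1.10 to 2.64 in Cd200r1. The cause was not tested.

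Depth limits the SIRPβ genes, with 0 or 1 count in all WT lines. The wide spread of the Prkd3-/- libraries limits every comparison in that genotype. In edgeR 349 of all genes were called lower and 12 higher in WT, and 0 with the replicate block.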
